A study of Drosophila melanogaster with 16 samples.

Results

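The transcripts of 2 proton-moving machines were measured in Drosophila S2 cells treated with dsRNA against imp, the gene of an RNA-binding protein of cytoplasmic granules. The genes were chosen by name. Every gene whose symbol in the authors' table begins with Vha or ATPsyn was taken, which gave 22 Vha genes and 5 ATPsyn genes, 27 of the 9596 genes that carry a symbol. S2 cells, a line derived from Drosophila embryos with features of blood cells, were grown at 26 °C, given dsRNA of imp or luciferase at 40 μg/ml with a daily boost and harvested on day 3. Luciferase dsRNA was the control, since flies have no such gene. For these libraries the study names 2 imp dsRNAs and a single luciferase dsRNA. Which imp dsRNA each library received is not given in the sources used here. Each treatment had 3 poly(A) RNA-seq libraries from the same line, and the same-numbered libraries of the 2 treatments form a pair, since the experiment was repeated on different days. The other 10 of the 16 samples of the study, which map Imp binding and measure the matching input RNA, were not analysed here.

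The vacuolar ATPase (V-ATPase), encoded by the Vha genes, spends ATP to pump protons into endosomes, lysosomes and secretory vesicles. Its cytosolic V1 sector binds ATP and turns a central rotor, and its membrane V0 sector carries protons across on a ring of proteolipid subunits. The mitochondrial ATP synthase, to which the ATPsyn genes belong, is built on the same rotary plan and works in the opposite sense, making ATP as protons flow back through the inner membrane.

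The imp dsRNA libraries, in the order of their replicate numbers 1, 2 and 3, totalled 5463535, 1081882 and 1401963 counts, against 2865083, 2332156 and 2017317 counts for the luciferase dsRNA libraries. Values are given as CPM, the count of a gene per 1000000 counted reads with library sizes scaled by the TMM method. A count of 3 corresponds to between 0.541 and 2.71 CPM. The filter on low counts left 6526 genes, 23 of the 27 among them. Imp (FBgn0262735), the target of the dsRNA, had 233, 324 and 455 CPM after imp dsRNA, against 660, 738 and 814 CPM after luciferase dsRNA, and the groups did not overlap. Its log2 fold change was -1.18 (standard error 0.18), and its adjusted p was 0.113 (edgeR, quasi-likelihood test, Benjamini-Hochberg adjustment), so Imp did not pass 0.05 in this fit. It did with no filter on low counts (adjusted p = 2.98e-06 by edgeR), without replicate 3 (adjusted p = 1.57e-12 by edgeR) and by DESeq2 with the replicate block (adjusted p = 0.000184). Of 10 markers of blood cells, Cg25C had between 3848 and 17069 counts per library, vkg between 1629 and 8780 and srp between 816 and 3325. Counts were lower for crq (194 to 925), ush (191 to 719) and Pxn (72 to 676). Sr-CI had 5 to 143, eater 7 to 40 and Hml 4 to 45, while nimC1 had 0 or 1. Over the 9 of these markers that were tested the median log2 fold change was 0.47, with 8 above 0 (48.5% of all genes). Of the 9, 3 had an unadjusted p under 0.05 by the edgeR test, where 2.88% of all genes did. Of 12 markers of other cell types 9 were found, and the neuronal genes elav and brp reached 67 to 291 and 47 to 219 counts, while Mhc, up, Fbp1, tj, bam, vas and nos had 7 counts or fewer. The part of either marker list in the values below was not tested. Since RNA was taken from whole cultures, fewer cells that express a gene and less RNA per cell cannot be told apart.

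Transcripts were detected for the whole V-ATPase, with at least 1 gene that passed the filter for each of the V1 subunits A to H and for the V0 subunits a, c, c", d and e. All members together took between 0.720 and 0.816% of the counted reads of a library. To compare genes of different length, CPM were divided by the length of exon in kilobases. On this scale Vha16-1, which encodes the proteolipid subunit c, stood at 1216 ± 55.5 CPM per kb after imp dsRNA and 1017 ± 156 CPM per kb after luciferase dsRNA (SD, n = 3 each). Its mean over the 6 libraries, 1117 CPM per kb, was higher than that of 98.5% of the tested genes with a known length. It lay 2.60 times above the next member, ATPsyn-gamma, and above it in 6 of 6 libraries.

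**Figure D1:**
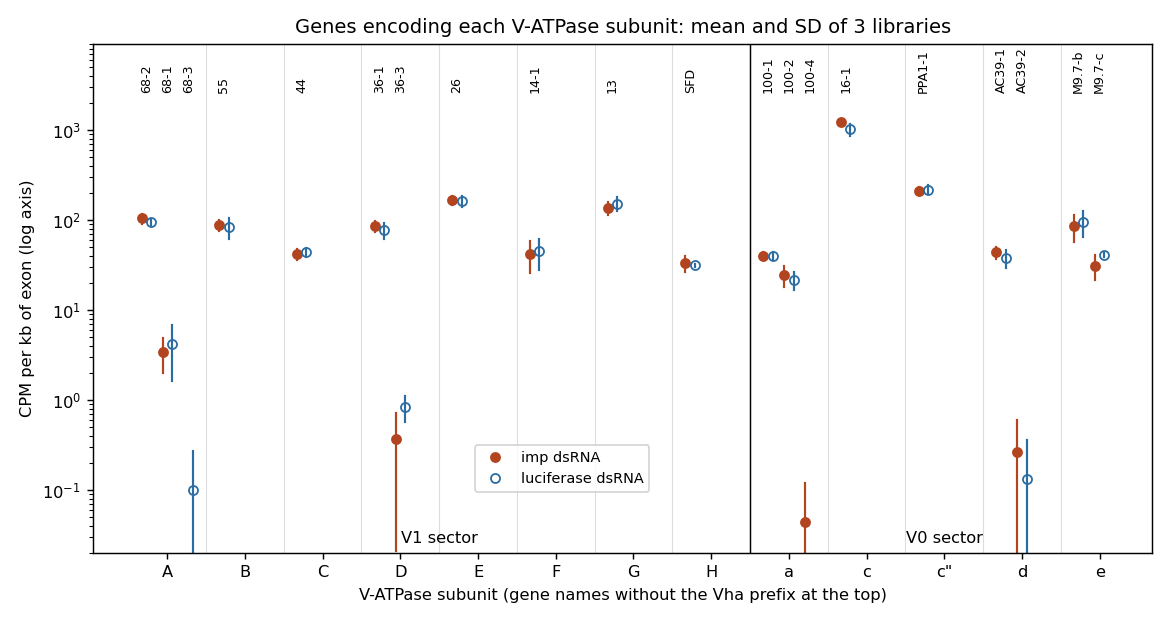
Level of each V-ATPase gene in CPM per kb of exon (log axis) by subunit, V1 sector left and V0 sector right of the black line, with filled circles for imp dsRNA and open circles for luciferase dsRNA. Points are means and lines SDs of 3 libraries. A group with no read in any library has no point, and lines that reach 0 run to the lower edge. Vha16-1 (subunit c) is the highest, at 1216 CPM per kb after imp dsRNA and 1017 CPM per kb after luciferase dsRNA, and 4 genes lie below 1 CPM per kb.

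The remaining members formed a graded series of levels. The ATPsyn genes followed Vha16-1, with means over the 6 libraries of 430 CPM per kb for ATPsyn-gamma, 407 for ATPsyn-Cf6, 307 for ATPsyn-d and 239 for ATPsyn-b, while the catalytic ATPsyn-beta stood lower at 112 CPM per kb. Among the ATP synthase genes under other symbols, CG1746, subunit c, stood above Vha16-1 at 1673 CPM per kb, although its exons share 142 nt with other annotations on the same strand in BDGP6, and sun, subunit epsilon, stood at 533 CPM per kb. Among the V-ATPase genes the order after Vha16-1 ran from VhaPPA1-1 (214 CPM per kb), Vha26 (164), Vha13 (143) and VhaM8.9 (140) to VhaSFD (32.2), Vha100-2 (23.1) and Vha68-1 (3.81). The median of all tested genes was 20.3 CPM per kb, and 22 of the 23 members lay above it, the exception being Vha68-1. Several neighbours in this order could not be separated. Vha55 exceeded Vha36-1 in 3 of 6 libraries, Vha14-1 exceeded Vha44 in 3 and VhaAC39-1 exceeded Vha100-1 in 3, whereas VhaPPA1-1 exceeded Vha26 and Vha100-2 exceeded Vha68-1 in 6.

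For the subunits with several genes, 1 gene gave nearly all of the reads in the cases of A, D and d. Vha68-2 (FBgn0263598), which encodes the catalytic subunit A, gave 96.4, 95.8 and 98.4% of the reads of the Vha68 genes after imp dsRNA, against 94.2, 94.4 and 98.8% after luciferase dsRNA. The exact Clopper-Pearson 95% intervals of these shares lay between 92.3 and 99.5%, and such intervals cover counting error only. Vha36-1, for the rotor subunit D, gave between 98.5 and 100% of its subunit's reads, and VhaAC39-1, for subunit d, which couples the rotor to the proteolipid ring, gave between 99.1 and 100%. The barely detected partners were Vha68-3 and Vha100-4, each with 2 reads in 1 library and none in the other libraries, VhaAC39-2, with 3 reads over 3 libraries, and Vha36-3, with 12 reads over 5 libraries. These 4 genes were removed by the filter and have no test.

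The barely detected genes include near neighbours of expressed ones. In the BDGP6 annotation, Vha68-2 lies on chromosome 2L from 12974322 to 12978607, and Vha68-3 begins 178 nt downstream on the same strand, from 12978786 to 12981293. Vha68-1, the weakly expressed other gene of subunit A, lies 19476 nt beyond on the opposite strand, from 13000770 to 13004107. On chromosome 3R, Vha100-2 (18390323 to 18399169) and Vha100-4 (18386841 to 18389805) are 517 nt apart on the same strand. No member shares exon sequence with another gene on its own strand in this annotation, but reads shared by paralogs of similar sequence could have been lost in the authors' counting.

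Subunits a and e were shared between 2 genes. Subunit a holds the half-channels by which protons enter and leave V0. Vha100-1 gave 62.5, 71.1 and 54.8% of the subunit a reads after imp dsRNA, against 57.5, 70.1 and 68.6% after luciferase dsRNA, the others coming from Vha100-2 apart from 2 reads of Vha100-4. For the small membrane subunit e, VhaM9.7-b gave 79.6, 68.6 and 87.4% after imp dsRNA, against 81.8, 74.6 and 71.9% after luciferase dsRNA, and VhaM9.7-c gave the others. The 2 treatments overlapped in both shares, and the highest and lowest share of both genes fell within the imp dsRNA libraries.

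The question asked of the knockdown was whether these transcripts change after imp dsRNA. No member passed. In the quasi-likelihood test of edgeR with Benjamini-Hochberg adjustment, 0 of the 23 members had an adjusted p under 0.05 (0% of all 6526 genes did), and 0 had an unadjusted p under 0.05, where 2.88% of all genes did. DESeq2 and limma-voom with the replicate block likewise gave 0 members at either limit. The log2 fold changes ran from -0.40 to 0.27, with 11 of 23 above 0 (48.5% of all genes), 10 of 18 among Vha and 1 of 5 among ATPsyn. The median was 0.031 for Vha and -0.15 for ATPsyn, beside -0.0067 for all genes tested. The Vha median was -0.039 without replicate 3 and -0.016 when scaled by library totals only. The 95% interval of every one of the 23 fold changes held 0 and lay within a 2-fold change in either direction, and 16 lay within a 1.5-fold change. The adjusted p was 0.999 for all 23 in this edgeR fit, so only the unadjusted p is given below.

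**Figure D2:**
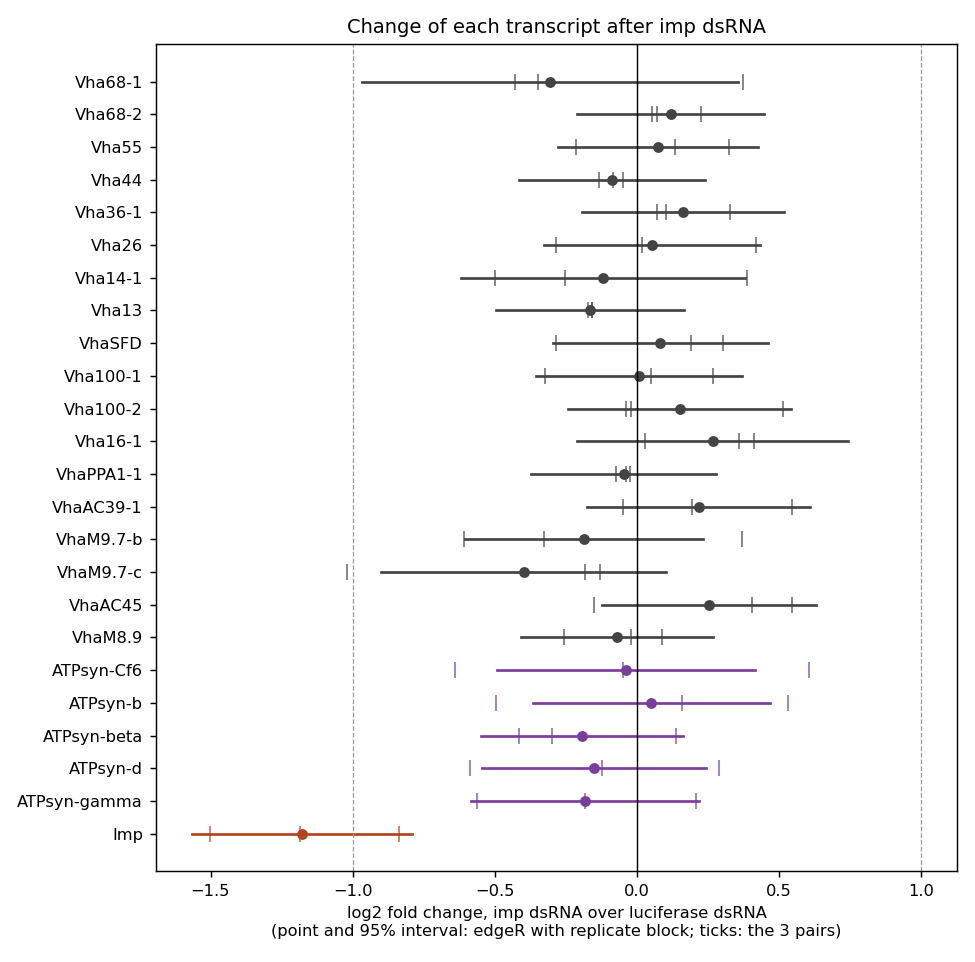
Log2 fold change, imp dsRNA over luciferase dsRNA, of the 18 Vha genes (grey) and 5 ATPsyn genes (purple) that passed the filter and of Imp (red). Points and lines are the edgeR estimate and its 95% interval, ticks are the ratios of the 3 pairs, and dashed lines mark a 2-fold change. All 23 member intervals cross 0, whereas that of Imp, at -1.18, does not.

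The 4 members on the study's list of transcripts most strongly bound by Imp were Vha16-1, Vha26, Vha55 and Vha68-2. That list was drawn from the study's binding data, and only transcripts with above-average expression were ranked for it. All 4 had fold changes above 0 (48.5% of all genes), with a median of 0.097 beside -0.058 for the other 14 Vha genes tested. The sign did not hold for 2 of them, since Vha26 was at -0.14 without replicate 1 and Vha55 at -0.056 without replicate 3. Vha16-1 (FBgn0262736) had 3567, 3908 and 3749.8 CPM after imp dsRNA, against 2778, 2937 and 3678 CPM after luciferase dsRNA. It was higher after imp dsRNA in each pair, but by 0.36 and 0.41 on the log2 scale in pairs 1 and 2 and only 0.028 in pair 3, where the luciferase library lay within the range of the imp dsRNA libraries. Its log2 fold change was 0.27 (standard error 0.22, unadjusted p = 0.247 by the edgeR test), with a 95% interval from -13.5% to 67.4%. This gene alone gave 55.4, 63.3 and 58.5% of all Vha reads after imp dsRNA, against 49.4, 56.4 and 58.8% after luciferase dsRNA, so its value weighs most in the summed V-ATPase level.

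Summed over the 22 Vha genes, the level was 6439, 6177 and 6412 CPM after imp dsRNA, against 5618, 5206 and 6260.3 CPM after luciferase dsRNA, a paired log2 ratio of 0.16 ± 0.11 (SD, n = 3 pairs). Without Vha16-1 the ratio was 0.020 ± 0.022. For the V0 sector it was 0.22 ± 0.16 with Vha16-1 and -0.024 ± 0.070 without it, and for the V1 sector it was 0.028 ± 0.069. Once the proteolipid gene was set aside, the sums of the 2 treatments were thus close, and no test was made on a sum.

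In the V1 sector, Vha68-2 had 322, 250.1 and 286 CPM after imp dsRNA, against 275, 238 and 275 CPM after luciferase dsRNA. It was higher in each pair, and its log2 fold change was 0.12 (standard error 0.15, unadjusted p = 0.446 by the edgeR test). Vha55 (FBgn0005671), the nucleotide-binding subunit B that alternates with A, had 262, 203 and 266 CPM after imp dsRNA, against 304, 185 and 212 CPM after luciferase dsRNA. Its direction differed between pairs, being lower in pair 1 and higher in pairs 2 and 3, and the fitted log2 value was 0.074 (standard error 0.16, unadjusted p = 0.658 by the edgeR test). Vha26 (FBgn0015324), subunit E of the peripheral stalk that holds the stator still, had 551, 475 and 441 CPM after imp dsRNA, against 412, 468 and 537 CPM after luciferase dsRNA. Here the 2 treatments overlapped, and the log2 fold change was 0.055 (standard error 0.18, unadjusted p = 0.760 by the edgeR test).

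The remaining V1 subunits lay as close. Vha13 (FBgn0026753), subunit G, the partner of E in the peripheral stalk, had 152, 116 and 113 CPM after imp dsRNA, against 171, 130.2 and 126 CPM after luciferase dsRNA. It was lower after imp dsRNA by nearly the same amount in every pair, with log2 ratios of -0.17, -0.16 and -0.16, while the groups overlapped because replicate 1 was high in both treatments. The fitted log2 fold change was -0.16 (standard error 0.15, unadjusted p = 0.301 by the edgeR test). Vha36-1 (FBgn0022097) had 106, 84.0 and 83.9 CPM after imp dsRNA, against 98.5, 80.0 and 66.7 CPM after luciferase dsRNA, higher in each pair at a log2 fold change of 0.16 (standard error 0.17). Vha44 (FBgn0262511), subunit C, which is released when the sectors come apart, had 185, 141 and 173 CPM after imp dsRNA, against 192, 155 and 183 CPM after luciferase dsRNA, lower in each pair at -0.088 (standard error 0.15). VhaSFD (FBgn0027779), subunit H, which silences free V1, had 96.3, 74.1 and 111 CPM after imp dsRNA, against 84.3, 90.4 and 90.1 CPM after luciferase dsRNA. Its imp dsRNA libraries lay on both sides of the narrow luciferase range, and the log2 fold change was 0.083 (standard error 0.18).

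**Figure D3:**
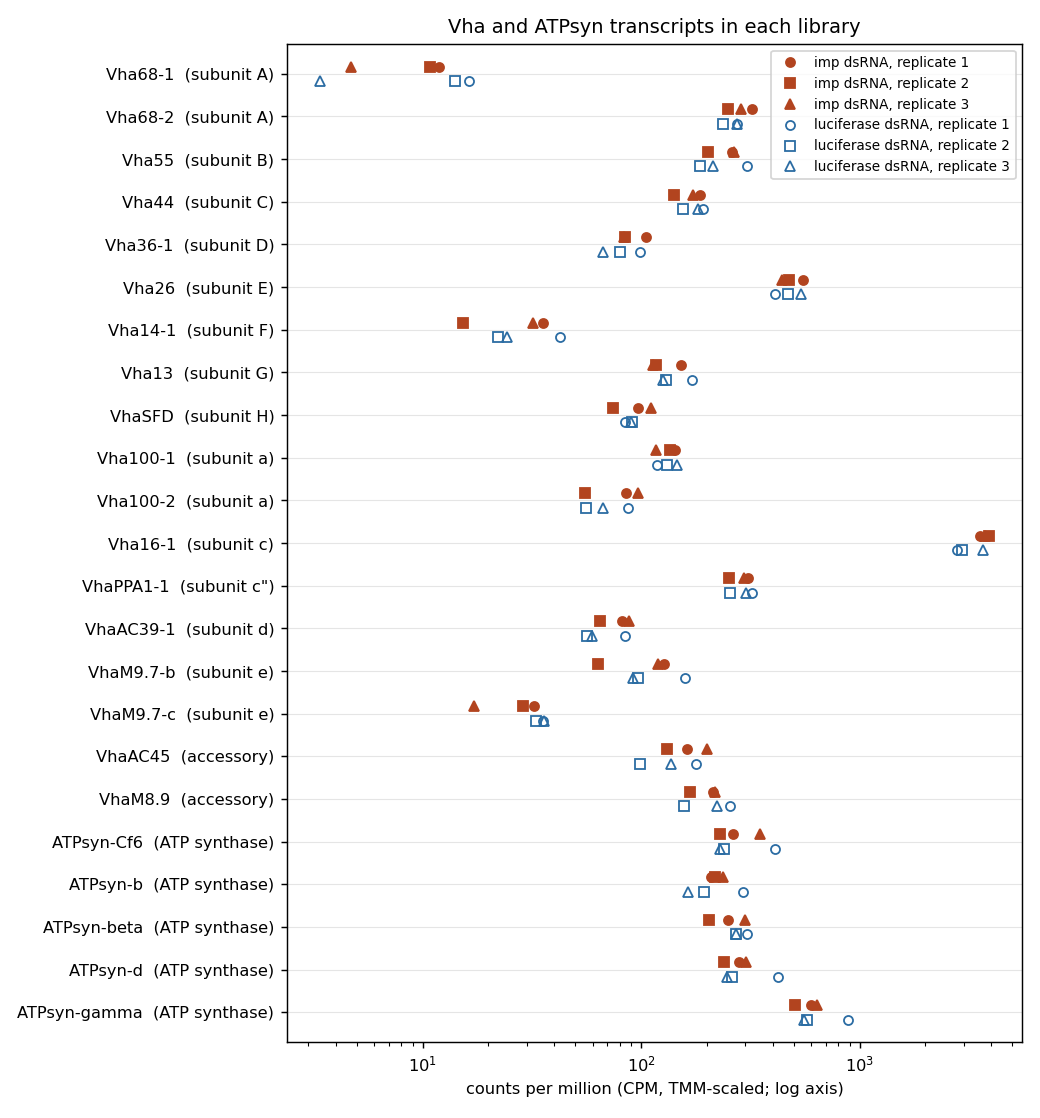
CPM (log axis) of the 23 members that passed the filter in each library, with filled red symbols for imp dsRNA above open blue symbols for luciferase dsRNA. Circles, squares and triangles are replicates 1, 2 and 3. Red and blue symbols overlap for every gene except VhaM9.7-c, where the 3 imp dsRNA libraries, from 17.3 to 32.5 CPM, lie below the 3 luciferase libraries, from 32.9 to 36.0 CPM.

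In the V0 sector, VhaPPA1-1 (FBgn0028662), the second proteolipid c", lay close in both treatments, with 307, 252 and 294 CPM after imp dsRNA, against 323, 256 and 302 CPM after luciferase dsRNA. The fitted log2 fold change was -0.047 (standard error 0.15), and the 3 pair ratios lay between -0.074 and -0.025. Vha100-1 (FBgn0028671) had 142, 135 and 117 CPM after imp dsRNA, against 118, 131 and 147 CPM after luciferase dsRNA. It was higher in pairs 1 and 2 and lower in pair 3, and its fitted log2 fold change was 0.0073 (standard error 0.17). VhaAC39-1 (FBgn0028665) had 81.5, 65.0 and 87.9 CPM after imp dsRNA, against 84.3, 56.6 and 59.9 CPM after luciferase dsRNA. The log2 fold change of 0.22 (standard error 0.18, unadjusted p = 0.251 by the edgeR test) gave one of the 3 smallest p among members above 0, and the groups overlapped.

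The gene pair of subunit e held the lowest fold change of the set. VhaM9.7-c (FBgn0028664) had 32.5, 28.9 and 17.3 CPM after imp dsRNA, against 35.6, 32.9 and 36.0 CPM after luciferase dsRNA. It was the only member whose groups did not overlap, 1 of 23 or 4.35%, where 6.19% of all genes had no overlap in either direction and 3.39% lay below as it did. Its log2 fold change of -0.40 (standard error 0.23, unadjusted p = 0.110 by the edgeR test) rested mostly on replicate 3, and without replicate 3 it was -0.15. VhaM9.7-b (FBgn0028663) had 127, 63.2 and 119 CPM after imp dsRNA, against 159, 96.8 and 92.0 CPM after luciferase dsRNA, at a log2 fold change of -0.19 (standard error 0.19). It was lower in pairs 1 and 2 and higher in pair 3.

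The accessory subunits showed the same overlap. VhaAC45 (FBgn0262515), a glycoprotein of the vesicle lumen that joins V0, had 161, 132 and 200.04 CPM after imp dsRNA, against 179, 99.2 and 137 CPM after luciferase dsRNA. It had the smallest p among members above 0, at a log2 fold change of 0.25 (standard error 0.18, unadjusted p = 0.169 by the edgeR test). Its direction was negative in pair 1 (-0.15) and positive in pairs 2 and 3 (0.41 and 0.55), and without replicate 1 the fold change was 0.47 and the unadjusted p by the edgeR test fell below 0.05, where 4.48% of all genes did. The fold change was 0.19 without replicate 2 and 0.090 without replicate 3. VhaM8.9, known as ATP6AP2 in BDGP6, gave a log2 fold change of -0.070 (standard error 0.16).

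Across the members, 7 of 23 went the same way in all 3 pairs, and 23.4% of all genes did so. Those higher in each pair were Vha16-1, Vha36-1 and Vha68-2, 3 of 23 beside 11.3% of all genes, and those lower were Vha13, Vha44, VhaM9.7-c and VhaPPA1-1, 4 of 23 beside 12.2%. All 7 were Vha genes.

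All 5 ATPsyn genes passed the filter. ATPsyn-gamma (FBgn0020235), the rotor shaft of F1, had 599, 508 and 640.1 CPM after imp dsRNA, against 886, 576 and 554 CPM after luciferase dsRNA. ATPsyn-beta (FBgn0010217), the catalytic subunit, on chromosome 4 in BDGP6, had 249, 204 and 299 CPM after imp dsRNA, against 306, 272 and 272 CPM after luciferase dsRNA. In both genes the highest value was luciferase dsRNA replicate 1. The log2 fold change was -0.18 (standard error 0.19, unadjusted p = 0.343 by the edgeR test) for ATPsyn-gamma and -0.19 (standard error 0.17, unadjusted p = 0.264 by the edgeR test) for ATPsyn-beta.

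The other ATPsyn genes belong to the peripheral stalk of the ATP synthase. ATPsyn-b (FBgn0019644) had 208, 218 and 236 CPM after imp dsRNA, against 294, 195 and 163 CPM after luciferase dsRNA, and was higher after imp dsRNA in pairs 2 and 3. ATPsyn-d (FBgn0016120) had 280.4, 239 and 303 CPM after imp dsRNA, against 421, 260.3 and 248 CPM after luciferase dsRNA. ATPsyn-Cf6 (FBgn0016119), coupling factor 6, had 262, 230.3 and 349 CPM after imp dsRNA, against 409, 238 and 229 CPM after luciferase dsRNA. All 3 were again highest in luciferase dsRNA replicate 1, and their log2 fold changes were 0.051 (standard error 0.19), -0.15 (standard error 0.18) and -0.039 (standard error 0.21).

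All 5 ATPsyn genes were thus lower after imp dsRNA in pair 1 and higher in pair 3, as were 29.8% of all genes, and all 5 were highest in luciferase dsRNA replicate 1, as were 27.3% of all genes. The median log2 ratio of the 5 genes was -0.56, -0.12 and 0.29 in pairs 1, 2 and 3. This pattern was singled out after the values were seen. Of the 8 ATP synthase genes listed under other symbols and tested, 8 showed both features, with median log2 ratios of -0.33, -0.12 and 0.47. They include blw, the alpha subunit, with 887, 775 and 1032 CPM after imp dsRNA, against 1097, 785 and 818 CPM after luciferase dsRNA. Of 21 tested genes of the electron transport chain and ATP export, 17 were lower in pair 1 and higher in pair 3, and 14 were highest in luciferase dsRNA replicate 1. Among the 18 Vha genes these counts were 7 and 8, and among 13 tested genes of V-ATPase assembly and the lysosome they were 4 and 2. All these genes were read from the same 6 libraries, so the genes are not independent. Each pair holds 1 library per treatment, so a difference between pairs in the effect of imp dsRNA could not be tested.

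**Figure D4:**
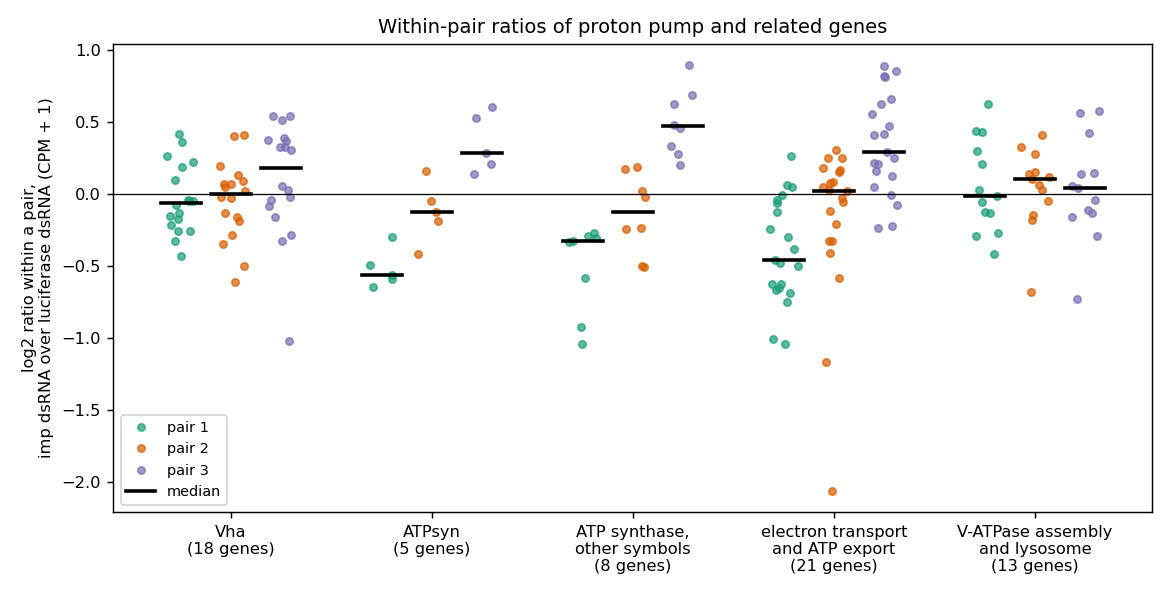
Log2 ratio (CPM + 1), imp dsRNA over luciferase dsRNA, within each pair for the tested genes of 5 groups, 1 point per gene, with bars at the median. The 5 ATPsyn genes and the 8 other ATP synthase genes lie below 0 in pair 1 and above 0 in pair 3, with medians of -0.56 and 0.29 for ATPsyn and -0.33 and 0.47 for the others, while Vha genes lie on both sides of 0 in each pair.

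The direction of the ATPsyn genes depended on the pairs used. Their median log2 fold change was -0.15 with all pairs, 0.078 without replicate 1 and -0.37 without replicate 3. Without replicate 3, ATPsyn-beta, ATPsyn-Cf6, ATPsyn-d, ATPsyn-gamma and VhaM9.7-b had an unadjusted p under 0.05 by the edgeR test, 5 of 23 members beside 12.9% of all genes, and none passed after adjustment. Summed CPM of the 5 genes were 1599, 1399 and 1827 after imp dsRNA, against 2316, 1542 and 1465 after luciferase dsRNA, a paired log2 ratio of -0.12 ± 0.43 (SD, n = 3 pairs).

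The related gene lists did not pass either. None of the 8 other ATP synthase genes, the 21 electron transport genes and the 13 lysosome genes had an unadjusted p under 0.05 by the edgeR test. Over all genes 2.88% did. The median log2 fold changes of the 3 lists were 0.0073, -0.069 and 0.070, with 5, 10 and 9 genes above 0 (48.5% of all genes). The smallest p in each list belonged to CG4692, subunit f of the ATP synthase, at -0.31 (standard error 0.21), to Ucrh, a subunit of complex III, at -0.58 (standard error 0.30), and to Cp1, the lysosomal protease cathepsin L, at 0.30 (standard error 0.17). Ucrh had 81.3, 18.1 and 47.9 CPM after imp dsRNA, against 77.8, 78.3 and 56.0 CPM after luciferase dsRNA, so its value rested on replicate 2. Cp1 had 498, 521 and 661 CPM after imp dsRNA, against 431, 484 and 442 CPM after luciferase dsRNA. Its groups did not overlap, as the only 1 of the 13 lysosome genes, where 6.19% of all genes had no overlap in either direction. The exons of Cp1 share 283 nt with another gene, CG42806, on the same strand in BDGP6.

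Differences between experiment days were examined in the same fit. In the test of the replicate terms, 0 of 23 members passed an adjusted p of 0.05 (quasi-likelihood test of edgeR, Benjamini-Hochberg adjustment), where 3.17% of all genes did. At an unadjusted p under 0.05 there were 6 of 23 (14.6% of all genes), namely Vha68-1, Vha14-1, VhaM9.7-b, VhaAC45, VhaM8.9 and Vha100-2, all of them Vha genes. By DESeq2 2 members and by limma-voom 6 members had an unadjusted p under 0.05, a limit for which the share of all genes was not counted with these tools. After adjustment 0 members passed by either, where 2.47% of all genes did by DESeq2 and 3.08% by limma-voom. The edgeR count after adjustment was 3 with no filter (5.34% of all genes), 1 without replicate 2 (4.25%) and 8 without replicate 3 (13.1%).

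Vha68-1 (FBgn0020368) had the smallest day p. It had 11.9, 10.8 and 4.71 CPM after imp dsRNA, against 16.3, 14.1 and 3.41 CPM after luciferase dsRNA, and both libraries of replicate 3 lay below all others (10.7% of all genes showed this). Replicate 3 was lower than replicate 1 by a log2 change of -1.84 (unadjusted p = 0.00233 and adjusted p = 0.0637 over the 3 days, from the same edgeR test and Benjamini-Hochberg adjustment). This rests on few reads, with 66, 12 and 6 counts after imp dsRNA, against 45, 35 and 7 counts after luciferase dsRNA. Vha14-1 (FBgn0262512), subunit F of the rotor, had 35.5, 15.4 and 32.2 CPM after imp dsRNA, against 42.5, 22.1 and 24.3 CPM after luciferase dsRNA. Both libraries of its replicate 1 lay above and both of replicate 2 below all others. The log2 difference of replicate 2 from replicate 1 was -1.01 (adjusted p = 0.172 over the 3 days by the edgeR test). For VhaM9.7-b the same difference was -0.82 (adjusted p = 0.184 over the 3 days by the edgeR test).

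**Figure D5:**
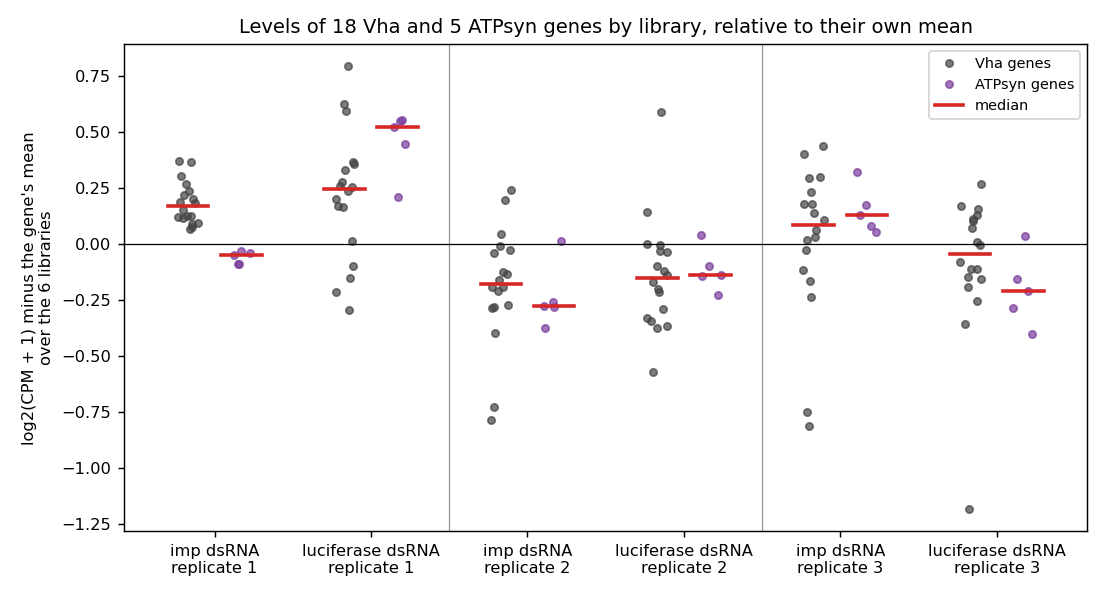
Log2(CPM + 1) of the 18 Vha genes (grey) and 5 ATPsyn genes (purple) in each library, relative to the gene's own mean over the 6 libraries, with red bars at the median and the imp dsRNA library left of the luciferase dsRNA library of the same replicate. Both libraries of replicate 2 have medians below 0, and the ATPsyn genes stand highest in luciferase dsRNA replicate 1, at a median of 0.52.

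In the fit over both treatments, most members were ordered alike between days. Replicate 2 lay below replicate 1 for 21 of 23 members, where 52.7% of all genes did, and replicate 3 lay below replicate 1 for 18 of 23, where 52.3% did. The members were not alone in this order. Replicate 2 lay below replicate 1 for 8 of 8 other ATP synthase genes, 20 of 21 electron transport genes and 7 of 13 lysosome genes. Replicate 3 lay below replicate 1 for 8, 17 and 3 of these. The median log2 difference of replicate 2 from replicate 1 was -0.33 for Vha and -0.44 for ATPsyn, beside -0.024 for all genes. Of replicate 3 from replicate 1 it was -0.090, -0.29 and -0.023. For ATPsyn the treatments disagreed on this second difference. The median log2 deviation from a gene's own mean rose from -0.048 in replicate 1 to 0.13 in replicate 3 after imp dsRNA. After luciferase dsRNA it fell from 0.52 to -0.21. In 8 members, Vha100-2, Vha14-1, Vha44, Vha55, Vha68-2, VhaAC45, VhaM8.9 and VhaPPA1-1, both libraries of replicate 2 lay below the other 4 (8.73% of all genes). In 6 members, Vha13, Vha14-1, Vha36-1, Vha44, VhaM9.7-b and VhaPPA1-1, both libraries of replicate 1 lay above the other 4 (11% of all genes). Among the members, day p-values were largest for Vha16-1, Vha26 and Vha100-1, at 0.672, 0.966 and 0.990 by the edgeR test. What differed between the days is not given in the sources used here.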

How the data were processed

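Poly(A) RNA of S2 cells was sequenced in 3 imp dsRNA and 3 luciferase dsRNA libraries. The authors mapped reads with BWA-PSSM to dm3 and yeast (a spike-in), kept reads overlapping 1 gene on the same strand and deposited raw counts per gene, 1 column per library. The submitters' processing notes name CASAVA 1.8.2, BWA and DESeq, without further versions. The ligation adapter of the knockdown libraries held a random barcode, by which, the study states, PCR duplicates can be collapsed. That the deposited counts were collapsed in this way is not restated for these libraries. Symbols (unit other) came from a table the authors deposited with their own comparison, holding group means of normalized counts, fold changes, log2 values and p-values, none of which were used. A single row that names no gene held 0% of the reads.

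Counts were tested with edgeR 4.0.16 under R 4.3.3 (TMM, filterByExpr, quasi-likelihood test, Benjamini-Hochberg adjustment over 6526 genes at 0.05) with the replicate number as block, since the study's dispersion estimate treated replicates as paired and the experiments were made on different days. Same-numbered libraries deviated together, at correlations of 0.48, 0.37 and 0.30. The block leaves 2 residual degrees of freedom. Replicates differed by a chi-square per degree of freedom of 6.38 to 27.6, so none was a repeat of another. DESeq2 1.42.0, limma 3.58.1, other filters and scalings, no block and each replicate left out were the alternatives. Lengths and positions came from BDGP6, a later build than dm3, in which 22 members matched by identifier and 5 by symbol.

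Library values are given for the 4 members on the study's Imp-bound list, the leading gene of each subunit, every ATPsyn gene, the 3 members above 0, the 3 below 0 and the 3 day differences with the smallest p, and Imp. The members and lists were chosen with earlier results of these data known.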

Additional observations from a re-analysis of the deposited data

How the results depend on the processing

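No member had an adjusted p under 0.05 between treatments in any alternative. The count over all genes, 0 by edgeR (188 at an unadjusted p under 0.05), became 4 with no filter, 1 by DESeq2 (the Imp transcript), and 0 to 58 with each replicate left out, the 58 without replicate 3. Without the replicate block, which ignores the pairing, edgeR gave 0 genes, 0 members and 72 genes at an unadjusted p under 0.05, with medians of 0.026 for Vha and -0.18 for ATPsyn, and the block changed no other call. The day test gave 3 members with no filter (Vha14-1, Vha68-1 and VhaM9.7-b) and 0 to 8 with each replicate left out, the 8 without replicate 3, where 13.1% of all genes passed. Imp passed with no filter (-1.18, adjusted p = 2.98e-06 by edgeR), by DESeq2 (-1.16) and without replicate 3 (-1.35).

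The sign of Vha100-1 turned with a minimum of 10 counts (-0.0015) and with library totals (-0.039). With each replicate left out the fold changes that turned sign ran from -0.37 to 0.28 for ATPsyn-Cf6, -0.19 to 0.34 for ATPsyn-b, -0.37 to 0.078 for ATPsyn-d, -0.38 to 0.0063 for ATPsyn-gamma, -0.15 to 0.17 for Vha100-1, -0.029 to 0.26 for Vha100-2, -0.33 to 0.025 for Vha14-1, -0.14 to 0.23 for Vha26, -0.056 to 0.22 for Vha55, -0.14 to 0.026 for VhaM8.9, -0.44 to 0.0062 for VhaM9.7-b and -0.0067 to 0.25 for VhaSFD. The cause was not tested. Without Vha16-1 the summed Vha ratio was 0.020, and per transcript length the VhaM9.7-b share was 70.2%. The shallowest library held 1081882 counts, and Vha68-1 had 6 to 66 counts per library.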
